A study of Mus musculus with 5 samples.

Results

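The 35 genes described here encode the enzymes and transporters of glycolysis and of the pentose phosphate pathway, together with the pyruvate dehydrogenase genes Pdha1 and Pdhb and the regulators Pdk1, Pfkfb3 and Pfkfb4. They were taken by symbol from a given list, drawn up by pathway with earlier results of these data known, and all 35 were found among the 55450 genes of the deposited matrices. Their RNA was followed in 5 single-cell libraries of mouse bone marrow progenitors, 1 of LMPP (lymphoid-primed multipotent progenitors), 1 of CMP (common myeloid progenitors) and 3 of GMP (granulocyte-monocyte progenitors). All libraries came from wild-type Balb/C mice of 8 to 12 weeks of age, whose femur, tibia and fibula marrow was enriched for c-Kit before sorting. All gates excluded cells stained for the lineage antigens Ter-119, Gr-1, CD11b, B220, CD4 and CD8. LMPP were gated as c-Kit+ Sca-1+ CD34+ cells with Flt3, CMP as Sca1- CD34+ cells with low CD16/32, and GMP as Sca-1- CD34+ cells with high CD16/32. The series text calls the GMP libraries biological replicates. Whether each came from a separate animal or from pooled animals is not given in the sources used here, so p-values measure the spread between these libraries.

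Glycolysis splits glucose into pyruvate and yields ATP and NADH, and lactate dehydrogenase turns pyruvate into lactate to restore NAD+. The pentose phosphate pathway branches off at glucose-6-phosphate. Its oxidative arm makes NADPH, which phagocytes later use for their oxidase, and its non-oxidative arm makes ribose phosphate for nucleotides. Several steps have isoforms with different kinetics, as in the hexokinases, phosphofructokinases and lactate dehydrogenases, so that a cell can carry the same reaction with different proteins.

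After filtering, the libraries held 6880 to 9016 cells, 79781306 to 117914117 UMIs (counted molecules) and medians of 9219 to 15065 UMIs per cell. Any pair of libraries shared 13 to 33 cell barcodes. Genes of the gates followed the labels: Flt3 had a level of 94.2 CPM (UMIs of a gene scaled to a common library total) in LMPP against 44.1 in CMP and 5.09 ± 0.65 in GMP, and Fcgr3 (a chain of CD16/32) at 2.19, 9.52 and 46.5 ± 5.5. The libraries also differed in a list of 16 immediate early and heat shock genes, which summed to 12165 CPM in LMPP and 8727 in CMP, against 3254 to 3670 in GMP, with no gene at 0. Markers of other lineages moved with the groups too: 8 erythroid markers summed to 537 CPM in LMPP and 533 in CMP, against 39.3 to 52.7 in GMP, and 7 megakaryocyte markers to 125, 532 and 19.9 to 45.5. Markers of neutrophils (10 genes) summed to 2255, 42.5 and 397 to 459, and those of T and NK cells (6 genes) to 102, 194 and 681 to 718. At most 1 marker of the erythroid and megakaryocyte lists was at 0 in a GMP library, and none in LMPP or CMP. By marker lists, 89.1% of LMPP cells were stem and multipotent-like. The largest class of CMP was lymphoid-primed-like, with 49.2% of its cells, against 0.519% of LMPP cells. A further 21.1% of CMP cells were erythroid-like and 7.38% megakaryocyte-like. The part of these differences in the results on the pathway was not tested. Of cell cycle genes, 20 S-phase genes summed to 1644 to 1857 CPM over all libraries, and 20 G2M genes to 2439 in LMPP, 1705 in CMP and 1649 to 1970 in GMP.

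The pathway took 0.521% of all UMIs in LMPP and 0.765% in CMP, and in GMP its share was 1.0% ± 0.041 (SD, n = 3). In these sums over whole libraries, fewer cells of a type and less RNA per cell cannot be told apart. Levels below are CPM on library sizes scaled with TMM factors, and ± marks the SD over the 3 GMP libraries unless SE is named. UMIs of 3' libraries count molecules irrespective of gene length. With edgeR's quasi-likelihood test over all genes, 21 of the 35 genes were higher in GMP than in CMP, 5 were lower and 9 did not pass an adjusted p of 0.05. Of all 19728 genes tested, 13.6% were higher and 19.1% lower, 32.7% in all. The median log2 difference of the 35 was 0.59, against -0.04 for all genes. Against LMPP, 24 were higher, 6 lower and 5 not past the threshold, beside 25.8% higher and 31.5% lower of all genes, 57.4% in all. The medians were 1.22 and -0.09. Both comparisons use the same GMP libraries, and the fit takes the spread of GMP libraries for the single libraries of CMP and LMPP.

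Scaling to total UMIs instead of TMM lowers the median of all genes by 0.29 (log2) against CMP and by 0.60 against LMPP. The counts then were 14 higher and 8 lower against CMP, and 19 higher and 9 lower against LMPP. Of all 19728 genes, 1448 were then higher and 5950 lower against CMP, and 2176 higher and 10212 lower against LMPP. The pathway genes kept medians of 0.29 and 0.60 on that scale, where all genes had -0.33 and -0.69. Under both scalings, 14 were higher and 5 lower in GMP than in CMP, and 19 higher and 6 lower than in LMPP.

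**Figure D1:**
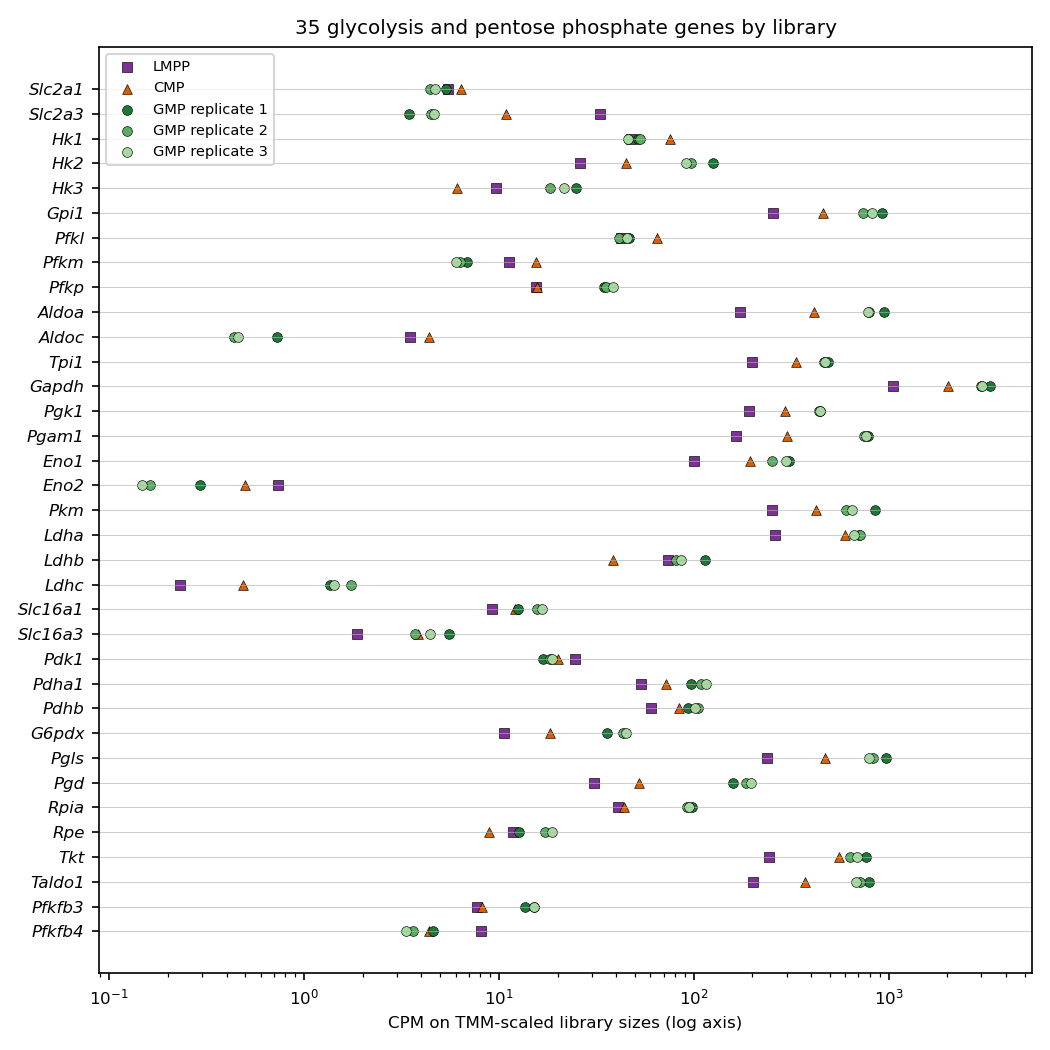
Levels of the 35 genes in each library (CPM on TMM-scaled library sizes, logarithmic axis), with 1 symbol for LMPP, 1 for CMP and 3 for the GMP libraries, in order of pathway step. The GMP symbols lie close together beside the distance to CMP or LMPP for genes such as Pgd, Pgam1 and Hk2, and Slc2a3 and Aldoc lie to the left in GMP.

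Glucose enters the cell through facilitative transporters, and of the 2 followed here 1, Slc2a3, was lower in GMP. Slc2a3 (GLUT3, a transporter of high affinity) had 33.0 CPM in the LMPP library, 10.9 in CMP, and 3.47, 4.51 and 4.66 in the GMP libraries. Levels fell in GMP by 1.37 ± 0.18 (SE) on the log2 scale against CMP (edgeR adjusted p = 0.000953) and by 2.96 ± 0.17 against LMPP (adjusted p = 1.03e-05). Slc2a1 (GLUT1, the widely expressed transporter) had 5.46, 6.39, and 5.35, 4.44 and 4.68 CPM in the same order. Its differences of -0.40 ± 0.19 and -0.18 ± 0.19 did not pass the test, but passed as lower under total UMI scaling (-0.71 and -0.79). Slc2a3 made up 85.8% of the UMIs of both transporters in LMPP, 63.1% in CMP and 46.5% ± 6.2 in GMP. Summed over both, uptake RNA was 38.5 CPM in LMPP and 17.3 in CMP, against 9.04 ± 0.27 in GMP.

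Hexokinases trap glucose as glucose-6-phosphate, and here the isoform that held most of the RNA changed. Hk1 (the form found in most tissues, bound to mitochondria) had 47.5 CPM in LMPP and 76.0 in CMP, against 51.7, 53.0 and 45.8 in GMP. Hk2 (also mitochondrial, and inducible by growth signals and hypoxia) had 26.0 and 44.8, against 125, 96.6 and 91.2. Hk3 (a form of blood and a few other tissues) had 9.64 and 6.1, against 24.9, 18.3 and 21.6. All GMP libraries lay above both other libraries for Hk2 and Hk3. For Hk1 they lay below CMP and on both sides of LMPP. Hk2 rose by 1.22 ± 0.20 against CMP (adjusted p = 0.00291) and 2.01 ± 0.21 against LMPP (adjusted p = 0.000165), and Hk3 by 1.82 ± 0.21 (adjusted p = 0.000529) and 1.16 ± 0.20 (adjusted p = 0.00176). Hk1 fell by 0.60 ± 0.13 against CMP (adjusted p = 0.0108). That call was lost without GMP replicate 3 (-0.49, adjusted p = 0.052), and against LMPP the difference was 0.08 ± 0.14, with -0.54 and a pass as lower under total UMI scaling. As a share of all hexokinase UMIs, Hk1 went from 57.2% in LMPP (exact 95% Clopper-Pearson interval 56.2 to 58.2, counting error only) and 59.9% in CMP (58.9 to 60.8) to 28.7% ± 3.0 in GMP. Hk2 held 31.2%, 35.3% and 59.0% ± 2.6, and Hk3 held 11.6%, 4.81% and 12.3% ± 1.4. An unnamed cluster with AC166102.1, Mt1 and Hk2 as leading genes, in that order, held 166 cells, 151 of them from GMP replicate 1, the library with the highest Hk2 level. Leaving it out, a check added after seeing the data, left the counts of called pathway genes at 21 and 5 against CMP and at 24 and 6 against LMPP.

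The hexokinase promoters are shown because these isoforms changed in different directions. Promoters were taken from RefSeq on the mouse build GRCm38.p6, as the 250 bases before the gene's start, on the gene's own strand and 5′ to 3′. Capitals mark ACGTG, the core of the hypoxia response element, and GGGCGG, the GC box, each on either strand (CACGT or CCGCCC where the match is on the other strand). Hk1 (chr10:62268855-62379908 in the matching GENCODE M21 annotation, minus strand) has its window at chr10:62379909-62380158, the outermost of 2 starts in the table. Hk2 (chr6:82725025-82774454, minus strand) has it at chr6:82774455-82774704. Hk3 (chr13:55005985-55021385, minus strand) has it at chr13:55021386-55021635. None of these windows holds an annotated exon.
Hk1: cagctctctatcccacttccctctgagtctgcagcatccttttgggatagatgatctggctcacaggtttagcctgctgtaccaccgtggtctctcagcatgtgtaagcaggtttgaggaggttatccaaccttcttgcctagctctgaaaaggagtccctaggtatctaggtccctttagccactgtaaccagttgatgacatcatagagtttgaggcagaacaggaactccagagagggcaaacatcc
Hk2: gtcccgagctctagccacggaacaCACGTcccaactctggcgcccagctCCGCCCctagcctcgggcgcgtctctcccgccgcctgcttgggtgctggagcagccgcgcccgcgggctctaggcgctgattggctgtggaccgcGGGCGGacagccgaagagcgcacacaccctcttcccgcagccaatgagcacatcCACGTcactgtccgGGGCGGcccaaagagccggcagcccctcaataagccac
Hk3: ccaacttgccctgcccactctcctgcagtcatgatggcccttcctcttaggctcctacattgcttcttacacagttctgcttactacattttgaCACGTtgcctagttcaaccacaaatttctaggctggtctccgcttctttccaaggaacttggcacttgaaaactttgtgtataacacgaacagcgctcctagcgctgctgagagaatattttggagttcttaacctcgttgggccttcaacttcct
The Hk2 window held 2 matches to ACGTG and 3 to GGGCGG, the Hk3 window 1 and 0, and the Hk1 window none of either. Over the table, 34 of the 35 genes matched, with 49 promoters. ACGTG was found in 16 of these (32.7%) and in 16.6% of all 32851 promoters of the same length, and GGGCGG in 28 (57.1%) and in 32.7%. CACGTG, the E-box, which contains ACGTG, was in 4 (8.16%) and in 6.02%. A match describes these letters only.

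**Figure D2:**
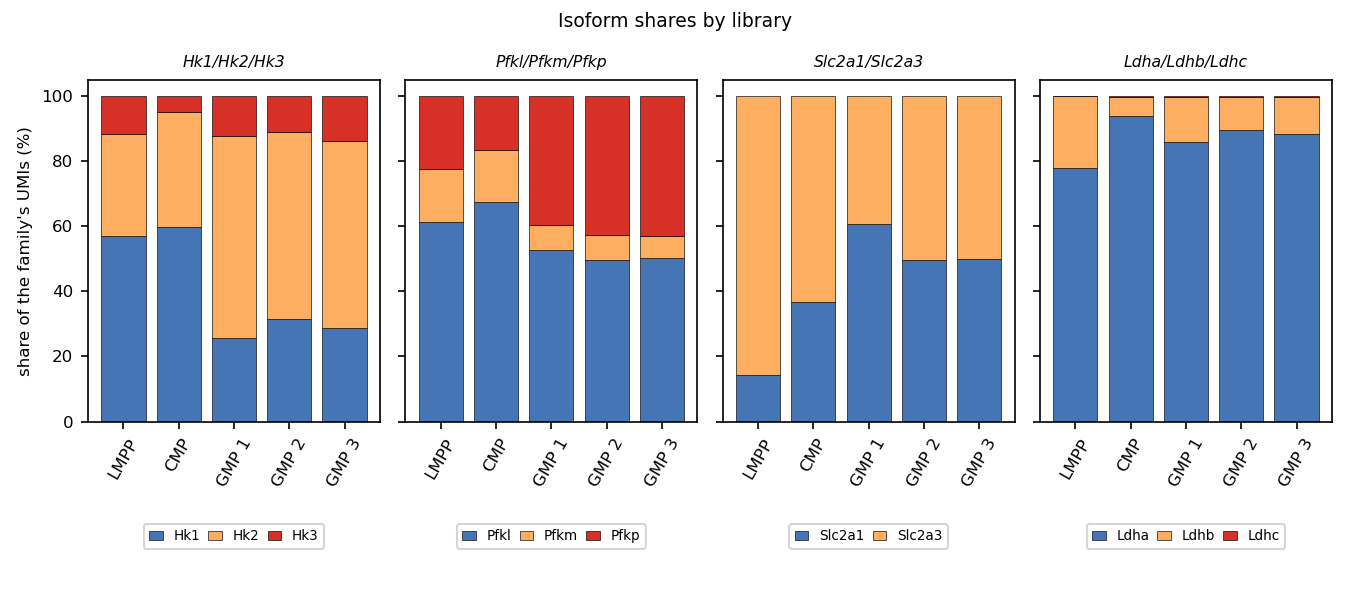
Share of each family's UMIs held by each isoform (percent, y axis) in the LMPP, CMP and 3 GMP libraries for the hexokinases, phosphofructokinases, lactate dehydrogenases and glucose transporters. Hk2 took the largest hexokinase share in GMP (59.0% ± 2.6) and Hk1 in LMPP and CMP (57.2% and 59.9%).

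Gpi1, which turns glucose-6-phosphate into fructose-6-phosphate at the point where both pathways part, rose in GMP, from 255 CPM in LMPP and 461 in CMP to 930, 741 and 819 (1.70 ± 0.18 and 0.85 ± 0.17, adjusted p = 0.000171 and 0.00708). Phosphofructokinase commits the sugar to glycolysis, and its 3 subunit genes went separate ways. Pfkp (the platelet type) had 15.4 CPM in LMPP and 15.8 in CMP, and 34.7, 35.4 and 38.5 in GMP, a rise of 1.20 ± 0.15 against CMP (adjusted p = 0.000651) and 1.23 ± 0.15 against LMPP (adjusted p = 0.000276). Pfkm (the muscle type) had 11.3, 15.5, and 6.85, 6.29 and 6.00, and fell by 1.28 ± 0.15 (adjusted p = 0.000516) and 0.82 ± 0.15 (adjusted p = 0.0024). Pfkl (the liver type) had 42.4, 64.6, and 46.3, 41.2 and 45.2. It fell by 0.55 ± 0.13 against CMP (adjusted p = 0.0137), a call lost without GMP replicate 2 (-0.46, adjusted p = 0.14), and differed by 0.06 ± 0.13 from LMPP, with -0.55 and a pass as lower under total UMI scaling (adjusted p = 0.00678). The subunits summed to 69.1 CPM in LMPP and 95.8 in CMP, against 86.8 ± 3.5 in GMP. In that sum, Pfkp held 22.3% in LMPP, 16.4% in CMP and 41.7% ± 1.9 in GMP, and Pfkl 61.4%, 67.4% and 50.9% ± 1.6. Pfkm held 16.3%, 16.2% and 7.36% ± 0.59.

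Fructose-2,6-bisphosphate, the strongest activator of phosphofructokinase, is made and broken down by the Pfkfb enzymes. Pfkfb3, whose kinase activity prevails, had 7.69 CPM in LMPP and 8.18 in CMP, and 13.5, 15.2 and 15.2 in GMP. It rose by 0.84 ± 0.16 against CMP (adjusted p = 0.00523) and 0.93 ± 0.16 against LMPP (adjusted p = 0.00165), the second lost under total UMI scaling (0.32, adjusted p = 0.144). Pfkfb4 had 8.11, 4.40, and 4.59, 3.63 and 3.32 CPM. It fell by 1.07 ± 0.21 against LMPP (adjusted p = 0.00323), and its difference of -0.20 ± 0.22 from CMP did not pass.

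The splitting and oxidation of the 3-carbon sugars is the part of the pathway with the most RNA. Aldoa, the main aldolase of most cells, had 173 CPM in LMPP and 413 in CMP, and 949, 798 and 785 in GMP. It rose by 1.03 ± 0.17 against CMP (adjusted p = 0.00284) and 2.28 ± 0.19 against LMPP (adjusted p = 4.88e-05). Aldoc, the brain form, fell from 3.50 and 4.39 CPM to 0.73, 0.44 and 0.46, by 2.98 ± 0.29 against CMP and 2.66 ± 0.29 against LMPP (adjusted p = 0.000205 and 0.000173). Its share of aldolase UMIs was 1.98% in LMPP, 1.05% in CMP and 0.063% ± 0.012 in GMP. Pgam1, the phosphoglycerate mutase, had 165, 301, and 782, 745 and 766 CPM, with rises of 1.35 ± 0.14 (adjusted p = 0.00035) and 2.21 ± 0.15 (adjusted p = 2.28e-05). For Aldoa and Pgam1 the lowest GMP library stood well above both other libraries.

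The remaining enzymes of this stretch rose by less. Against CMP, Tpi1, Gapdh, Pgk1, Eno1 and Pkm rose by 0.50 to 0.73 on the log2 scale. Gapdh, which reduces NAD+ and was the most abundant gene of the set, had 1051 CPM in LMPP and 2013 in CMP, with 3301, 2965 and 3004 in GMP. These 5 rises against CMP all missed the threshold under total UMI scaling (log2 0.20 to 0.42). Without GMP replicate 2, Tpi1, Gapdh, Pgk1 and Eno1 missed it with differences of 0.55, 0.68, 0.63 and 0.67 (adjusted p = 0.15, 0.15, 0.086 and 0.052). Against LMPP the same genes rose by 1.21 to 1.56 and passed under both scalings. Eno2, the neuronal enolase, was near the limit of detection, at 0.73 CPM in LMPP and 0.50 in CMP, against 0.15 to 0.29 in GMP. It fell against LMPP (-1.79 ± 0.40, adjusted p = 0.0061), a call that DESeq2 did not make (adjusted p = 0.054). The deposited gene list also holds pseudogenes of Aldoa, Gapdh, Pgk1, Pgam1 and Ldha, so the counts of these 5 genes may have lost or gained shared reads.

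**Figure D3:**
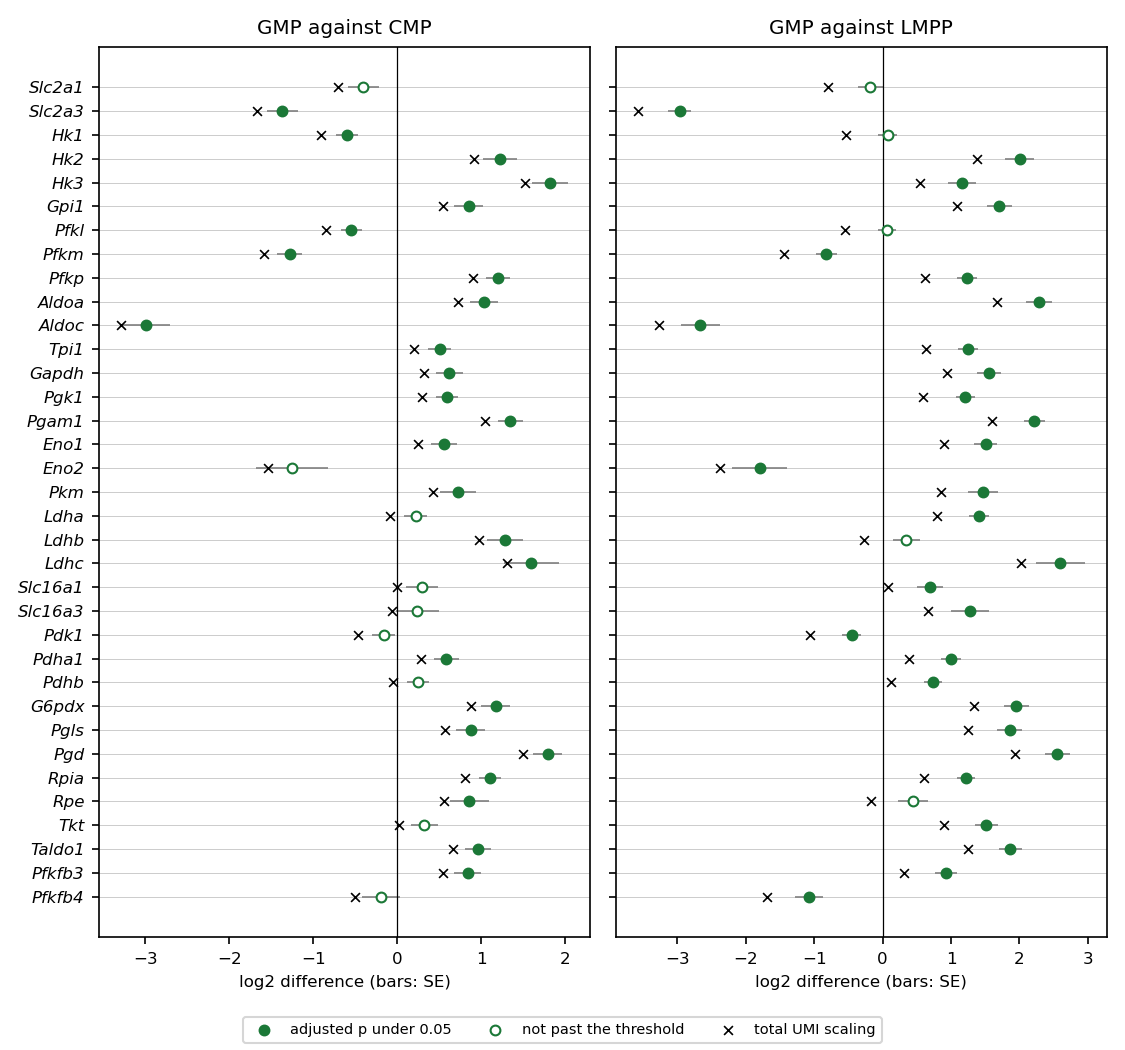
Log2 differences of GMP against CMP (left) and LMPP (right) for each gene, with SE as bars; filled circles passed an adjusted p of 0.05, open circles did not, and crosses give the value under total UMI scaling. Pgd, Hk3 and Pgam1 lie far to the right in the left panel, and Aldoc, Slc2a3 and Pfkm to the left in both.

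Lactate dehydrogenase is built from subunits that differ in their preference for pyruvate or lactate. Ldha, the subunit that favours lactate formation, had 262 CPM in LMPP and 597 in CMP, and 704, 718 and 664 in GMP. It rose by 1.41 ± 0.15 against LMPP (adjusted p = 0.000161), while its difference of 0.22 ± 0.14 from CMP did not pass. Ldhb, the heart-type subunit, had 73.6, 38.7, and 114, 81.1 and 85.9 CPM, a rise of 1.28 ± 0.21 against CMP (adjusted p = 0.00301) and a difference of 0.35 ± 0.20 from LMPP that did not pass. CMP thus stood lowest for Ldhb, with 6.07% of lactate dehydrogenase UMIs, against 21.9% in LMPP and 11.8% ± 1.9 in GMP. Ldhc, known as the testis form, had 0.23, 0.49, and 1.36, 1.74 and 1.42 CPM, and rose by 1.60 ± 0.33 against CMP (adjusted p = 0.0078) and 2.60 ± 0.36 against LMPP (adjusted p = 0.000544). Much of it lay in a small class of GMP cells described further on.

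Lactate and pyruvate leave or enter through the monocarboxylate transporters. Slc16a1 had 9.22 CPM in LMPP and 12.1 in CMP, and 12.5, 15.6 and 16.6 in GMP, and Slc16a3 had 1.86, 3.86, and 5.55, 3.72 and 4.41. Both rose against LMPP (0.69 ± 0.19 and 1.28 ± 0.27), lost under total UMI scaling (0.08 and 0.66), and neither passed against CMP. Pyruvate dehydrogenase carries pyruvate into the mitochondrial cycle. Its subunit genes Pdha1 and Pdhb rose against LMPP (1.0 ± 0.15 and 0.73 ± 0.14), again lost under total UMI scaling (0.39 and 0.12). Against CMP, Pdha1 rose by 0.58 ± 0.15 (adjusted p = 0.0176), missing the threshold under total UMI scaling (0.28) and without GMP replicate 2 (0.60, adjusted p = 0.057). Pdk1, the kinase that switches the complex off, had 24.6 CPM in LMPP and 20.2 in CMP, and 16.9, 18.4 and 18.8 in GMP. It fell by 0.45 ± 0.14 against LMPP (adjusted p = 0.0221). That call was lost without GMP replicate 2 (-0.46, adjusted p = 0.088), without replicate 3 (-0.46, adjusted p = 0.058) and with DESeq2 (-0.41, adjusted p = 0.059).

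All 3 genes of the oxidative pentose phosphate arm rose in GMP under both scalings. G6pdx, the entry enzyme and first source of NADPH, had 10.6 CPM in LMPP and 18.4 in CMP, and 35.8, 43.4 and 44.7 in GMP. It rose by 1.17 ± 0.17 against CMP (adjusted p = 0.00167) and 1.95 ± 0.18 against LMPP (adjusted p = 9.16e-05). Pgd, which makes the second NADPH, had 30.8, 52.3, and 159, 186 and 198 CPM, and its rises of 1.79 ± 0.17 (adjusted p = 0.000203) and 2.55 ± 0.18 (adjusted p = 2.5e-05) were among the largest of the set. Pgls, the lactonase between them, had 238, 472, and 972, 832 and 791 CPM (0.87 ± 0.17 and 1.86 ± 0.18, adjusted p = 0.00588 and 0.000111). Summed over the arm, the level was 280 CPM in LMPP and 543 in CMP, against 1087 ± 70 in GMP, a ratio of 2.0 to CMP and 3.88 to LMPP. Every GMP library exceeded both other libraries for each of these 3 genes, a pattern whose share over all genes was not counted.

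The non-oxidative arm rearranges sugars of 3 to 7 carbons between the pathways. Rpia, the ribose phosphate isomerase, had 40.7 CPM in LMPP and 43.9 in CMP, and 97.6, 92.1 and 94.1 in GMP (1.22 ± 0.13 and 1.11 ± 0.13, adjusted p = 0.000189 and 0.000593). Taldo1, the transaldolase, had 201, 375, and 794, 714 and 684 CPM (1.87 ± 0.17 and 0.96 ± 0.16, adjusted p = 7.22e-05 and 0.00253). Tkt, the transketolase, had 244, 558, and 769, 631 and 690 CPM. It rose against LMPP (1.52 ± 0.17, adjusted p = 0.000221), and its difference of 0.32 ± 0.16 from CMP did not pass. Rpe, the ribulose phosphate epimerase, had 11.9, 8.92, and 12.6, 17.2 and 18.6 CPM and rose against CMP (0.86 ± 0.23, adjusted p = 0.0235), a call lost under total UMI scaling (0.56, adjusted p = 0.124). The genes of this arm differed in where the step lay: Rpia stood at nearly the same level in LMPP and CMP, whereas Tkt had most of its gain between those 2 libraries.

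Grouped by reaction, 17 steps were summed. In 15 of them all GMP libraries lay above CMP, and in 16 above LMPP, a description with no matching count over all genes. The step of pyruvate dehydrogenase also holds its kinase gene Pdk1, which lay lower in all GMP libraries than in CMP and LMPP. Below CMP were glucose uptake and phosphofructokinase, and below LMPP glucose uptake alone. Under total UMI scaling the counts above were 12 and 13, and the counts below 2 and 3. Of 19 isoforms in 8 families, the share in CMP lay outside the range of the GMP libraries for 17 and that in LMPP for 18. Shares in a family of 2 isoforms mirror each other, so their entries are not separate observations. The counts set single libraries against the range of the GMP libraries and have no matching count over all genes.

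CMP and LMPP have 1 library each, so that their difference has no replicate check, and intervals cover counting error only. At 2-fold or more with an interval excluding 1, 5 of the 35 genes were higher in CMP (7.07% of all genes tested) and 1 was higher in LMPP (15% of all genes). Those higher in CMP at 20 CPM or more were Aldoa (ratio 2.39, exact 95% interval 2.35 to 2.43), Tkt (2.29, 2.26 to 2.32) and Ldha (2.28, 2.25 to 2.31). Ldhc (2.09, 1.25 to 3.55) and Slc16a3 (2.07, 1.74 to 2.47) were the others, both under 4 CPM. Slc2a3 was higher in LMPP (3.02, 2.82 to 3.25). The median log2 difference of the 35 genes was 0.62, beside -0.02 for all genes. With total UMI scaling none of the genes was 2-fold higher in CMP and 3 were 2-fold higher in LMPP, and at 4-fold none passed in either direction.

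Further genes of the same pathways were counted in the same way. Of 45 of 52 listed genes that could be tested, 12 were higher and 6 lower in GMP than in CMP (median 0.15; 13.6% and 19.1% of all genes), and 19 higher and 7 lower than in LMPP (median 0.43; 25.8% and 31.5% of all genes). Under total UMI scaling these became 5 and 10, and 11 and 15, with medians of -0.15 and -0.19. Of all 19728 genes, 1448 and 5950, and 2176 and 10212 were higher and lower on that scale. Among them, Gys1 (muscle-type glycogen synthase) rose from 7.34 CPM in CMP to 22.1 ± 2.1 (1.59 ± 0.17, SE) and Mpc1 (mitochondrial pyruvate carrier) from 70.6 to 147 ± 9 (1.06 ± 0.14), while Pck2 (mitochondrial PEP carboxykinase) fell from 66.0 to 41.4 ± 5.5 (-0.67 ± 0.16). Against LMPP, G6pc3 (ubiquitous glucose-6-phosphatase) rose from 23.6 to 88.4 ± 6.0 CPM (1.90 ± 0.15) and Rbks (ribokinase) from 7.13 to 26.5 ± 2.5 (1.89 ± 0.17), and Fbp1 (fructose bisphosphatase) fell from 67.6 to 41.7 ± 9.3 (-0.70 ± 0.21). Of 24 regulators and genes known to respond to hypoxia, 5 were higher and 6 lower against CMP, and 6 and 6 against LMPP, beside the same shares of all genes. These counts were 4 and 8, and 4 and 13, with total UMI scaling, beside the counts of all genes on that scale given above. Ero1l (an ER oxidoreductase) rose by 1.86 ± 0.15 against CMP and 1.83 ± 0.15 against LMPP, P4ha1 (a collagen hydroxylase) by 0.91 ± 0.14 against CMP and Mif by 1.71 ± 0.18 against LMPP, and Ddit4 (an mTORC1 inhibitor) fell by 1.55 ± 0.39 against CMP.

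Cells of all libraries were clustered together without the pathway genes, and classes were named by markers on one part of each cell's UMIs. The test between classes within GMP used the other part, with a block for library. The reference was the granulo-monocytic-like class (35.4% ± 0.96 of GMP cells), led by granule genes. It was compared with monocyte-like (39.1% ± 2.2), basophil and mast cell-like (6.38% ± 1.44) and eosinophil-like cells (1.60% ± 0.19). The comparisons share that reference, and unnamed cells (16.5% ± 1.3 of GMP cells) were left out. Median UMIs per cell were 13696 ± 2208, 13366 ± 2292, 5760 ± 650 and 4269 ± 698 in these classes, and the pathway took 1.02%, 1.03%, 0.794% and 0.891% of their UMIs. Total UMI scaling moves the median of all genes up by 0.10, 0.28 and 0.50 (log2) in the 3 comparisons, in the order given.

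In monocyte-like cells G6pdx was the gene that stood apart. It had 46.7, 59.3 and 56.5 CPM in the 3 libraries, against 25.8, 32.3 and 30.5 in the reference, with no overlap. It rose by 0.87 ± 0.05 (SE; edgeR adjusted p = 3.27e-30), and these cells held 55.6% ± 2.1 of its GMP UMIs. Pgls, the next enzyme of the same arm, fell by 0.37 ± 0.04 (adjusted p = 4.29e-13). Pgd fell by 0.17 ± 0.03 (adjusted p = 9.92e-07), a call lost under total UMI scaling (-0.06), at cluster resolution 2 (-0.10), with clusters made without S and G2M genes (-0.10), with doublets kept (-0.05) and without the block (-0.17). Of 34 genes tested, 4 were higher and 17 lower (all genes 18.1% and 22.3%, 40.4% in all; medians -0.09 and -0.01). Rpia had 82.8, 80.2 and 80.6 CPM against 122, 114 and 116 and fell by 0.53 ± 0.04 (adjusted p = 2.63e-23). Gpi1 fell by 0.48 ± 0.04, Taldo1 by 0.30 ± 0.04, Eno1 by 0.25 ± 0.04, Hk1 by 0.22 ± 0.05 and Aldoa by 0.18 ± 0.04. The Aldoa call was lost under total UMI scaling (-0.08), with DESeq2 (adjusted p = 0.078) and without the block, which also ended those of Taldo1, Eno1 and Hk1. The other genes higher were Slc2a3 (0.42 ± 0.17), Hk3 (0.17 ± 0.06) and Gapdh (0.10 ± 0.04), each lost without GMP replicate 2 (0.22, 0.17 and 0.10). Genes of lower level also fell, among them Ldhc (1.41 CPM in the reference, 0.23 ± 0.14 here) by 1.90 ± 0.29, Pfkfb4 by 0.84 ± 0.15 and Pfkfb3 by 0.50 ± 0.08. Most differences of the class were small, and without library as a block 1 gene, G6pdx, was higher and 6 were lower. Without it, 772 of all 12877 genes were higher and 750 lower. Under total UMI scaling 11 were higher and 11 lower, with 4 and 11 in both scalings. Of all 12877 genes, 4034 were higher and 1629 lower on that scale.

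**Figure D4:**
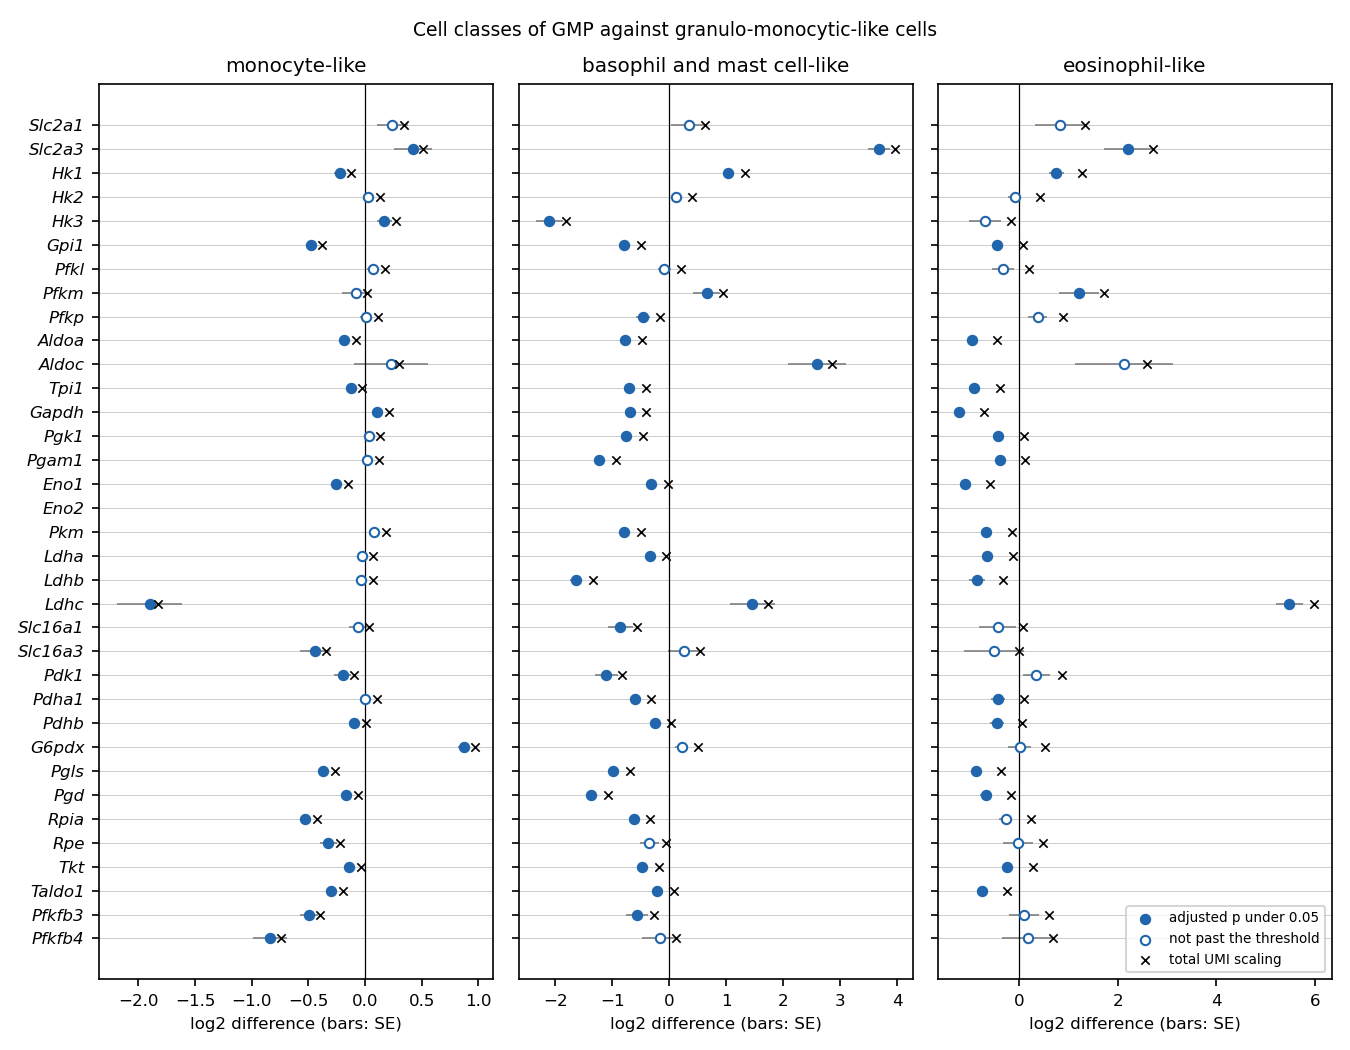
Log2 differences of monocyte-like, basophil and mast cell-like and eosinophil-like GMP cells from granulo-monocytic-like cells for the genes tested, with SE as bars and filled symbols past an adjusted p of 0.05. G6pdx lies right of 0 in monocyte-like cells (0.87), Slc2a3 in basophil and mast cell-like cells (3.67) and Ldhc in eosinophil-like cells (5.47).

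Basophil and mast cell-like cells had lower levels of most of the genes tested and other shares of the hexokinases and glucose transporters. Of 34 genes, 22 were lower and 5 higher (all genes 25.8% and 25.9%, 51.7% in all; medians -0.47 and 0.01). Slc2a3 had 22.1, 27.5 and 42.4 CPM against 1.68, 2.05 and 2.73 in the reference, a rise of 3.67 ± 0.19 (adjusted p = 1.02e-33). These cells held 26.2% ± 1.2 of the GMP UMIs of Slc2a3. It was not even within the class: on total UMI scaling its level was 81.2 ± 26.4 CPM in the cluster led by mast cell genes and 11.3 ± 3.5 in the one led by basophil genes. Hk1 had 102, 99.2 and 91.5 CPM against 50.7, 48.0 and 43.5 and rose by 1.03 ± 0.08 (adjusted p = 4.65e-22). Hk3 had 3.68, 4.38 and 6.05 against 24.0, 17.3 and 21.3 and fell by 2.10 ± 0.23 (adjusted p = 5.45e-14). Hk2 differed by 0.11 ± 0.07 and did not pass, but passed as higher under total UMI scaling (0.41). Hk1 thereby held 45.5% ± 4.1 of hexokinase UMIs, beside 27.9% ± 2.1 in the reference, and Hk3 2.22% ± 0.70 beside 12.2% ± 1.6. Hk2 held the most in both, 52.3% ± 4.3 beside 59.9% ± 2.3.

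Downstream, Ldhb had 39.9, 27.9 and 31.0 CPM in these cells against 125, 89.9 and 90.7 and fell by 1.64 ± 0.10 (adjusted p = 1.12e-28). Pgd fell by 1.37 ± 0.07, Pgam1 by 1.23 ± 0.05, Pdk1 by 1.11 ± 0.20, Pgls by 0.99 ± 0.05, Pkm by 0.80 ± 0.05, Gpi1 by 0.79 ± 0.05 and Aldoa by 0.78 ± 0.05. Aldoc (2.59 ± 0.50), Ldhc (1.46 ± 0.39) and Pfkm (0.65 ± 0.25) rose from few UMIs. On total UMI scaling, Ldhc had 7.06 ± 6.01 CPM in the cluster led by basophil genes and 0.68 ± 0.59 in that led by mast cell genes. In the same order, Aldoc had 2.24 ± 1.33 and 4.66 ± 1.68 CPM, and Pfkm 9.37 ± 0.66 and 10.3 ± 4.7. The Ldhc call was lost without GMP replicate 3 (1.10, adjusted p = 0.058), and that for Pfkm without any 1 of the 3 (0.52 to 0.75). Under total UMI scaling 7 were higher and 16 lower, and 5 and 16 were called under both scalings. Of all 12877 genes, 5079 were higher and 1753 lower on that scale.

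Eosinophil-like cells, 118, 160 and 119 per library, held much of the Ldhc RNA. Ldhc had 51.9, 92.1 and 63.9 CPM there, against 1.55, 1.15 and 1.52 in the reference, and rose by 5.47 ± 0.27 (adjusted p = 3.97e-34). In the undivided counts these were 42, 86 and 56 UMIs, 41.1% ± 5.3 of all Ldhc UMIs of GMP from 1.60% of the cells. Ldhc made up 12% ± 1.7 of lactate dehydrogenase UMIs in these cells and 0.176% ± 0.029 in the reference. The class was led by the eosinophil granule genes Prg2, Epx, Ear6 and Prg3, with Ldhc, Prss34 and Ms4a2 also among the leading genes, the last pair markers of basophils and mast cells. In basophil and mast cell-like cells Ldhc stood at 4.53 ± 2.68 CPM. Outside GMP it lay in other classes. In CMP, erythroid-like cells held 37 of its 42 UMIs (2.35 CPM on total UMI scaling). In LMPP, neutrophil-like cells had 10.1 CPM on that scale, from 9 UMIs. Ldhc lies at chr7:46861203-46878142, plus strand, 5576 bases past the end of Ldha. Its promoter is printed because its RNA in GMP was highest in 1 class of cells. The window, chr7:46861013-46861202 on the plus strand, is cut to 190 bases so as to leave out an annotated exon, and its capitals mark 1 GC box.
Ldhc: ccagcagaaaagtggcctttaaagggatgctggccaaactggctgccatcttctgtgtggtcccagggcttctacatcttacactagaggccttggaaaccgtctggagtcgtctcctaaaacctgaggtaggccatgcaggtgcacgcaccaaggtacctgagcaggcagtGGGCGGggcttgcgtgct
The RefSeq promoter table gives 2 starts for this gene, and the printed window lies before the start of the gene's outermost annotated model.

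Of the 34 genes tested in eosinophil-like cells, 16 were lower and 4 higher (all genes 17.3% and 11.1%, 28.4% in all; medians -0.40 and -0.02). Gapdh had 1239, 1394 and 1291 CPM against 3340, 2919 and 2911 and fell by 1.22 ± 0.06 (adjusted p = 2.58e-36). Eno1 fell by 1.09 ± 0.10, Aldoa by 0.95 ± 0.07, Tpi1 by 0.90 ± 0.08, Pgls by 0.88 ± 0.07, Ldhb by 0.85 ± 0.16, Taldo1 by 0.75 ± 0.07 and Pgd by 0.67 ± 0.11. Hk1 had 83.5, 92.1 and 63.9 CPM against 50.7, 48.0 and 43.5 and rose by 0.76 ± 0.15 (adjusted p = 3.02e-05), with 42.3% ± 5.2 of hexokinase UMIs. Slc2a3 had 9.03, 11.5 and 11.4 CPM, from only 4, 6 and 5 UMIs in the part tested. It rose by 2.21 ± 0.48 (adjusted p = 0.000101), lost where doublet calls were kept (1.09, adjusted p = 0.098). Pfkm rose by 1.22 ± 0.40 from few UMIs, lost without GMP replicate 1 or 3 (1.17 and 0.84). Scaling changed these counts: with total UMIs, 9 were higher and 6 lower, with a median of 0.12 beside 0.48 for all genes. On that scale 3574 of all 12877 genes were higher and 743 lower. The falls of Ldhb, Pgd, Pkm and Ldha no longer passed, and Tkt turned from -0.23 ± 0.07 to a pass as higher (0.29). Under both scalings, 4 were called higher and 6 lower.

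**Figure D5:**
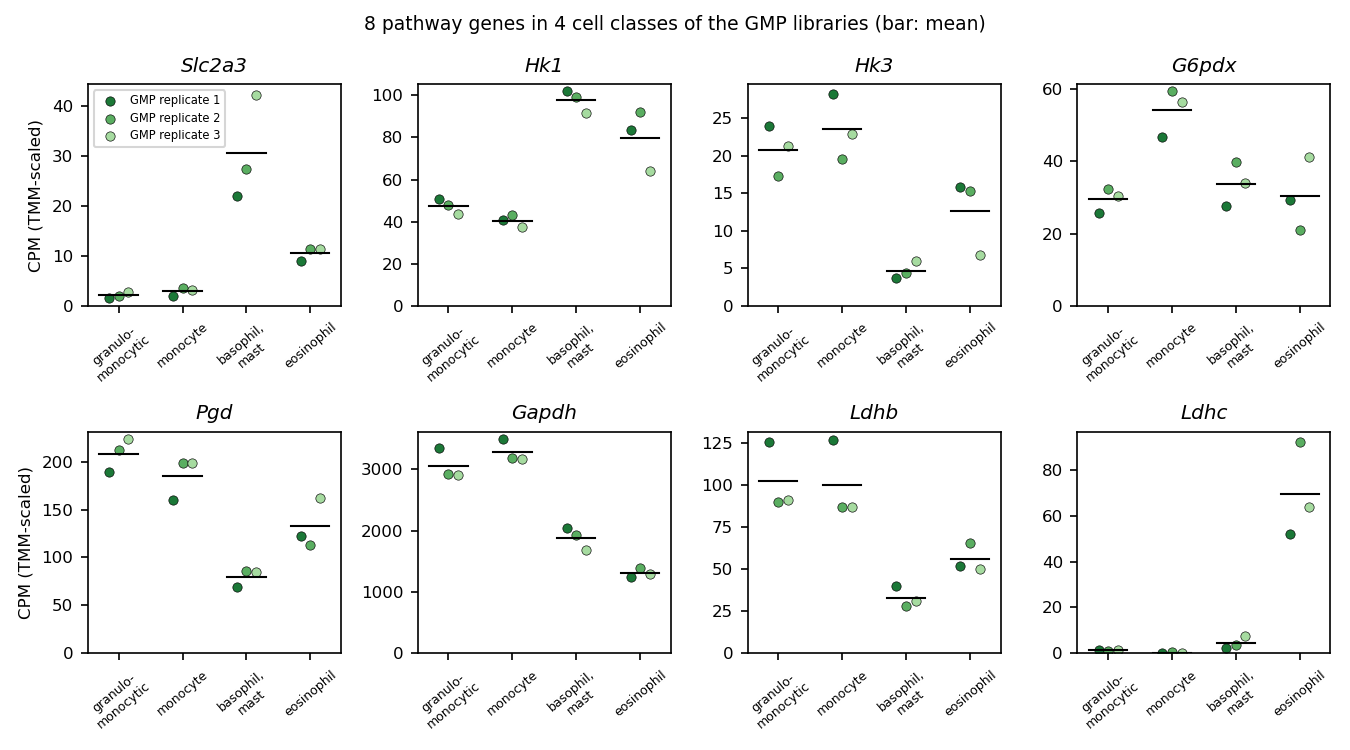
Levels of selected genes (CPM on TMM-scaled class sizes, linear axes from 0) in the 4 GMP classes, with 1 point for each GMP library and a bar at the mean. Ldhc in eosinophil-like cells (51.9 to 92.1 CPM) and Slc2a3 in basophil and mast cell-like cells (22.1 to 42.4 CPM) lie above the other classes in every library.

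The other lists behaved as follows within GMP. Of 38 further pathway genes tested, 5 were higher and 9 lower in monocyte-like cells, 6 and 14 in basophil and mast cell-like cells, and 0 and 6 in eosinophil-like cells. Of all genes, 18.1% and 22.3%, 25.9% and 25.8%, and 11.1% and 17.3% were higher and lower in these classes. Under total UMI scaling the counts were 9 and 9, 8 and 7, and 10 and 4. Of all 12877 genes, 4034 and 1629, 5079 and 1753, and 3574 and 743 were then higher and lower. At an unadjusted p under 0.05, edgeR gave 8 in eosinophil-like cells, beside 4752 of all 12877 genes. Gys1 fell by 0.74 ± 0.06 and Mpc1 by 0.58 ± 0.03 in monocyte-like cells, where Pck2 (0.32 ± 0.05) and Tigar (0.31 ± 0.07), a fructose-2,6-bisphosphatase, rose. Fbp1 fell by 1.90 ± 0.15 and Rbks by 1.43 ± 0.17 in basophil and mast cell-like cells, and by 2.09 ± 0.29 and 1.41 ± 0.32 in eosinophil-like cells. Bpgm, which makes 2,3-bisphosphoglycerate, rose by 0.93 ± 0.15 in the basophil and mast cell-like class. Of 21 regulators and hypoxia-responsive genes, 2 were higher and 7 lower, 3 and 8, and 1 and 5 in the same order. With total UMI scaling these were 5 and 5, 7 and 4, and 8 and 2, beside the counts of all genes given above. Mif fell by 1.24 ± 0.05 and 1.03 ± 0.06 in the last pair of classes, Egln3 by 1.12 ± 0.16 in the first of these and Higd1a by 0.95 ± 0.12 in the second. Myc and Mxi1 fell by 0.36 ± 0.05 and 0.36 ± 0.07 in monocyte-like cells, and Ddit4 rose by 3.15 ± 0.14 in basophil and mast cell-like cells.

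Monocyte-like cells, with 228 CMP cells and 3046 to 3356 per GMP library, were used to compare CMP and GMP within 1 class, chosen for its number of CMP cells. Basophil and mast cell-like cells were also found in both (134 in CMP) and were not compared. The CMP cells lay largely in 1 cluster, and the GMP cells over 3. Within the class, edgeR called 0 of 33 genes tested, where 1.92% of 13799 genes passed (1.07% higher in GMP and 0.855% lower), and DESeq2 called 1. At an unadjusted p under 0.05 there were 5 of the 33, beside 1898 of all 13799 genes. The median was -0.01, beside 0.03 for all genes. Ldhb had 44.1 CPM in the CMP cells and 117, 80.8 and 81.1 in the GMP cells, a difference of 1.07 ± 0.26 with an adjusted p of 0.0557. It passed with DESeq2 (adjusted p = 0.0061) and without any 1 GMP library (0.87 to 1.16). Pgd had 115 CPM against 148, 185 and 185 (0.59 ± 0.18, adjusted p = 0.147) and G6pdx 32.3 against 43.3, 55.4 and 52.8 (0.65 ± 0.22, adjusted p = 0.203). Without GMP replicate 1, Pgd (0.69), G6pdx (0.74) and Rpia (0.51) passed as well. In that fit 1365 of all 13881 genes passed, against 265 of 13799 with every library. Pgam1, with 633 CPM against 735, 733 and 733, differed by 0.21 ± 0.16. Hk1 held 28.2% of hexokinase UMIs in the CMP cells of this class (24.5 to 32.2), Hk2 54.9% and Hk3 16.8%, where the whole CMP library had 59.9%, 35.3% and 4.81%.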

How the data were processed

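The deposited files are count matrices, with whole UMI counts of genes by barcodes from 10x 3' libraries. Cell Ranger 3.1.0, Seurat 3.1.1 and mm10 are named in the submitters' processing notes, whereas Cell Ranger 6.1.1 wrote the matrices per the file headers. Barcodes under 500 genes or 1000 UMIs or over 10% mitochondrial UMIs (77 to 387 per library) and doublets called against simulated ones at 0.8% per 1000 barcodes (432 to 783) were removed. The pathway genes and all lists were chosen with earlier results of these data known.

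UMIs summed per library were tested with edgeR 4.0.16 (quasi-likelihood, TMM, filterByExpr, prior count 2, Benjamini-Hochberg at 0.05, R 4.3.3). The SE is the size of the log2 difference divided by the square root of F. All 2 residual degrees of freedom come from GMP. No test was run between CMP and LMPP. Clusters (Leiden, resolution 1, 30 components, 2000 variable genes, 20 neighbours) left out the pathway genes. A class needed 3 markers raised 1.5-fold at 20 CPM. The UMIs of each cell were split at random, classes were named on one part and tested on the other, with 6 residual degrees of freedom.

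On simulated counts the GMP against CMP fit recovered 30% of 1.5-fold, 80% of 2-fold and 100% of 4-fold changes, and the same comparison within monocyte-like cells 6%, 78% and 100%. Alternatives were total UMI scaling, DESeq2 1.42.0, no low-count filter, other cluster resolutions, undivided counts, doublets kept, clusters without S and G2M genes, no library block and each GMP library left out. Full statistics went to at most 8 called genes per direction at 20 CPM or more, with isoform families given whole, and to at most 2 per direction of each further list. 1 symbol, Aldoa, stood on 2 identifiers, and the one with 339220 of the UMIs (44 on the other) was used. The promoter of Slc2a3 and protein sequences were not used here.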

Additional observations from a re-analysis of the deposited data

How the results depend on the processing

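Over the pathway genes tested, in all tested comparisons and alternative settings, 2185 values stayed on their side of the threshold. A further 51 passed that had not, 111 no longer passed and 13 changed sign. The cause was not tested in any case. Under total UMI scaling, the genes lower in GMP than in CMP became 8, those of monocyte-like cells 11 higher and 11 lower, and those of eosinophil-like cells 9 and 6. The counts of all genes on that scale are given above with these comparisons. CMP against LMPP became 0 higher and 3 lower, and 0 and 0 at 4-fold. In monocyte-like cells the number higher was 2 at resolution 0.5, 1 without the library block (6 lower), 1 with DESeq2, 1 with doublets kept and 1 to 3 with a GMP library left out. Within the class shared by CMP and GMP it was 1 with DESeq2, 2 with no filter and 1 to 4 with a GMP library left out. Of all genes, 168 of 13799, 352 of 22936 and 163 to 692 of 13340 to 13881 were higher in these settings.

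Values that changed sign under total UMI scaling were Hk1 (-0.54) and Pfkl (-0.55) against LMPP, Pdhb in monocyte-like (0.00702) and basophil and mast cell-like cells (0.034, with Taldo1 at 0.083), and in eosinophil-like cells Hk2 (0.43), Gpi1 (0.082), Pgk1 (0.10), Pgam1 (0.13), Pdha1 (0.095), Pdhb (0.074) and Tkt (0.29). Slc2a3 in monocyte-like cells was -0.00498 with doublets kept. No paired analysis of the groups was possible, because CMP and LMPP have 1 library each. The block applies within GMP. Without the replicate block 5 genes were higher and 19 lower in basophil and mast cell-like cells, beside 2692 and 2561 of all 12877 genes. In eosinophil-like cells 4 were higher and 14 lower, beside 1161 and 1917 of all genes. With few cells, levels in the eosinophil-like class rest on little depth.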

Other observations

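The hexokinase make-up also varied between the cell classes of the other libraries, which have no replicates, so that the intervals cover counting error only (exact 95% Clopper-Pearson). In CMP, Hk1 held 80.2% (78.7 to 81.7) of hexokinase UMIs in erythroid-like cells, 75.1% (72.2 to 77.8) in megakaryocyte-like cells, 65.0% (58.5 to 71.0) in basophil and mast cell-like cells and 28.2% in monocyte-like cells. Between these lay B cell-like cells with 65.7% (60.5 to 70.5) and lymphoid-primed-like cells with 49.8% (48.3 to 51.2). The lymphoid-primed-like cells had the most hexokinase UMIs of the named CMP classes (4584). Hk3 held 0.607% in the erythroid-like and 16.8% in the monocyte-like cells of the same library. In LMPP, Hk1 held 92.7% (89.8 to 95) in erythroid-like cells, 57.6% (56.5 to 58.7) in stem and multipotent-like cells, 31.6% (25.9 to 37.8) in granulo-monocytic-like cells and 18.7% (12.6 to 26.2) in monocyte-like cells. The 413 hexokinase UMIs of erythroid-like and 139 of monocyte-like LMPP cells are few.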
